A study of Mus musculus with 8 samples.

Results

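Cell proliferation genes are the genes whose transcripts rise when cells copy their DNA and divide. The 37 members described here were taken by gene symbol from the count tables, out of 54752 genes in all. By role they comprise 10 S-phase genes (Mcm2 to Mcm7, Pcna, Rrm1, Rrm2 and Tyms), 24 mitotic genes, the G1/S cyclins Ccne1 and Ccne2, and Hmgb2, a chromatin protein. The tables hold RNA-seq counts of the right cerebral cortex of 8 mice, 4 in each of 2 groups, with 1 mouse per library. All were adult male wild-type mice of strain C57BL/6 (C57BL/6 J in the methods of the study), killed 3 weeks after surgery. BCAS mice had bilateral carotid artery stenosis, in which a microcoil was wound around each common carotid artery, with the narrower coil on the right, to lower blood flow to the brain. Sham mice, the controls, had the same surgery without coils. In bulk tissue such as this, more cells of a type and more RNA per cell cannot be told apart.

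A dividing cell passes from G1 into S phase, where the genome is copied, and then through G2 into mitosis, where the copies are parted. Genes of DNA replication are switched on at the G1/S step by E2F transcription factors, whereas most mitotic genes are held off by the DREAM complex until G2 and are read through CCAAT boxes and cell cycle homology regions (CHR) in their promoters. Neurons of the adult cortex have left the cell cycle, and the cells known to divide there are glial precursors, microglia, astrocytes after injury, vascular cells and white blood cells that enter the tissue.

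All 37 members passed the filter on low counts. A gene was called when its adjusted p in the edgeR quasi-likelihood test was under 0.05 and its log2 fold change was above 1 in size. By this rule 23 members were called higher in BCAS mice, beside 11.0% of the 17136 genes tested, and 0 were called lower, beside 1.28%. At an adjusted p under 0.05 alone, 28 members were higher (19.2% of all genes tested) and 1, Ccne1, was lower (12.8%), and 8 missed the threshold. Ccne1 was also the 1 member that was lower at an unadjusted p under 0.05, and DESeq2 and limma-voom called 0 members lower. The median log2 fold change of the members was 1.38, against -0.01 over all genes tested. In 20 members every BCAS mouse lay above every sham mouse, as did 18.5% of all genes tested. These include Cdk1, Ccnb1, Ccnb2, Aurkb and Dlgap5, which could pass the filter on low counts only through their level in BCAS mice. The count of calls rested in part on single libraries: it was 11 without Sham mouse 1, 15 without Sham mouse 2 and 27 without BCAS mouse 2. In the same fits 1631 of 17613, 1687 of 17666 and 2408 of 17567 genes tested were called higher, against 1877 of 17136 with all mice. The filter matters less for the 29 members above 0.558 CPM (counts scaled to library size per 1000000 reads), the filter level, in all 4 sham libraries. Of these, 15 were called higher, with a median log2 fold change of 1.15, beside 8.90% of the 15532 genes that met the same condition. The other 8 members (Cdk1, Ccnb1, Ccnb2, Birc5, Aurkb, Bub1, Ube2c and Dlgap5) could pass the filter only through their level in BCAS mice. Their 8 calls are part of the 23 but depend on a filter that kept them for a high BCAS level, so the count over the 29 is the one to read against all genes.

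**Figure D1:**
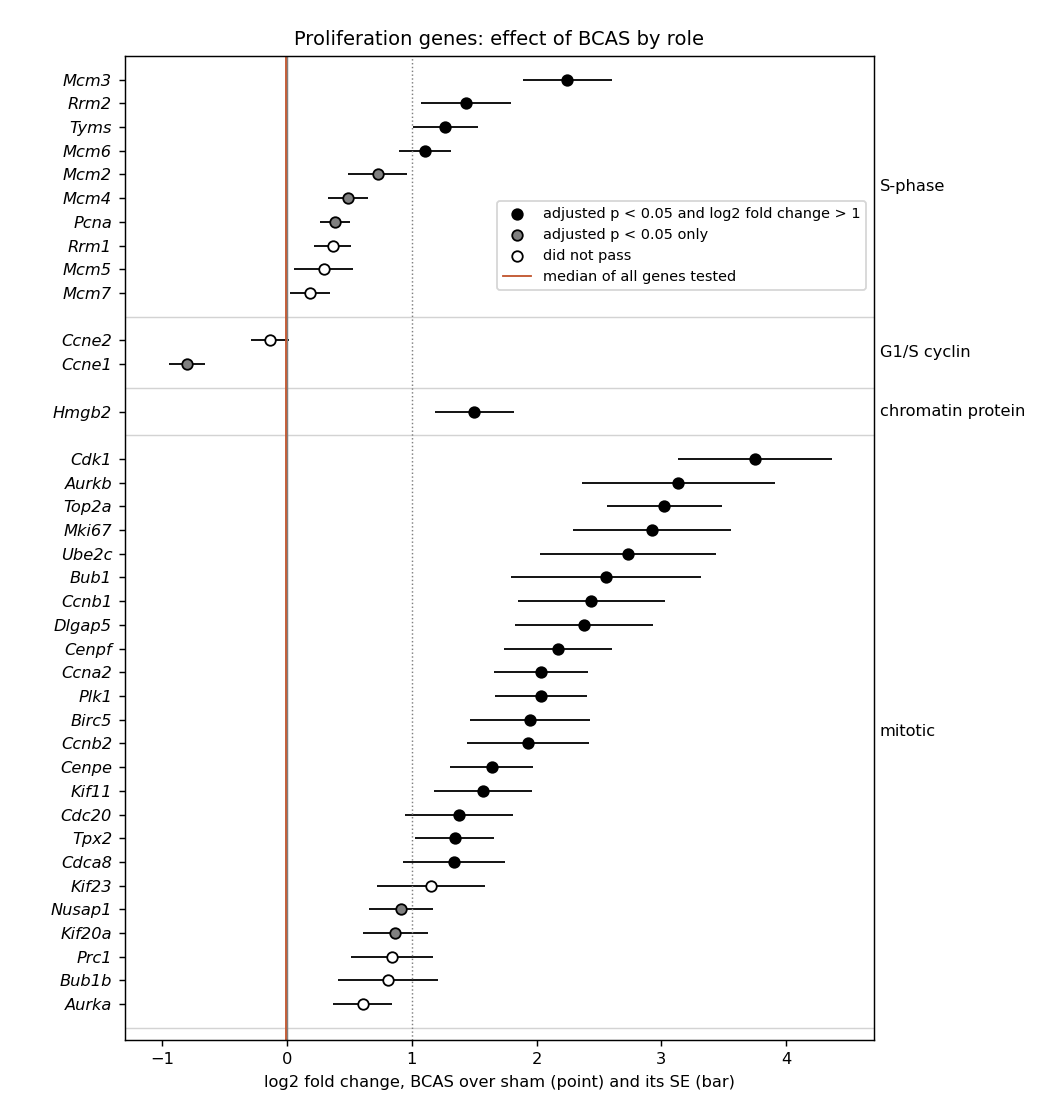
Log2 fold change of each of the 37 members in BCAS over sham mice (x axis; point, estimate; bar, SE from the edgeR quasi-likelihood fit, n = 4 mice per group), grouped by role. Mitotic genes lie between 0.61 and 3.75, S-phase genes between 0.19 and 2.25, and the 2 G1/S cyclins lie below 0.

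The promoters of the members fell into kinds by their motifs. RefSeq promoter windows of the GRCm38.p6 assembly, 250 bases before to 50 bases after a transcription start, were found for 30 members. No window was found for Aurkb, Ccna2, Tpx2, Kif20a, Mcm4, Ccne2 or Dlgap5. The letters CCAAT, the box bound by the factor NF-Y, stood on either strand in 17 of 19 mitotic promoters (89.5%) and in 8 of 9 S-phase promoters (88.9%), against 41.1% of all 27025 genes with a window. TTTGAA or TTTAAA, the CHR letters, stood in 17 of 19 mitotic promoters (89.5%) but in 3 of 9 S-phase promoters (33.3%), against 30.6% of all genes. An E2F letter string (TTTCCCGC, TTTGGCGC or TTTCGCGC, which can overlap each other on opposite strands) stood in 4 of 9 S-phase promoters (44.4%) and in 1 of 19 mitotic promoters (5.26%), that of Cdk1, against 2.12% of all genes. These are matches of letters, not mapped binding sites, and whether they go with a call was not tested. The mitotic genes Aurka, Bub1b, Kif23 and Prc1, which missed the threshold, held both CCAAT and TTTGAA, and the E2F strings were in Mcm5 and Mcm7, which missed it, as well as in Mcm3 and Mcm6, which were called.

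The 120 bases before the start are shown 5′ to 3′ on the gene's strand for 3 mitotic genes that rose, for the 2 S-phase genes of the replicative helicase that were called, and for Ccne1, the member that fell. Capitals mark CCAAT, CHR or E2F letters on either strand. Cdk1 lies at chr10:69352913-69353032 (minus strand), Top2a at chr11:99024190-99024309 (minus), Ccnb1 at chr13:100786487-100786606 (minus), Mcm3 at chr1:20820313-20820432 (minus), Mcm6 at chr1:128359706-128359825 (minus) and Ccne1 at chr7:38107491-38107610 (minus).
Cdk1: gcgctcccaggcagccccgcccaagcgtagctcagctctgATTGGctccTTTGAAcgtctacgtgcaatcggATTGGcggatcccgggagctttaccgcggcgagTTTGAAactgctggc
Top2a: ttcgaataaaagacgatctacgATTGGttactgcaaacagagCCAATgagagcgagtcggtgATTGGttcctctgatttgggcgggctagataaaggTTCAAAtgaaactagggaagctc
Ccnb1: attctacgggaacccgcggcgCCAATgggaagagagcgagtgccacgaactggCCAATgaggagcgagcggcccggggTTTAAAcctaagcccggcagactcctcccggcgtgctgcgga
Mcm3: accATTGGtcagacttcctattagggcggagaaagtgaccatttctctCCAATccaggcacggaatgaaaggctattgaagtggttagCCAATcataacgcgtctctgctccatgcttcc
Mcm6: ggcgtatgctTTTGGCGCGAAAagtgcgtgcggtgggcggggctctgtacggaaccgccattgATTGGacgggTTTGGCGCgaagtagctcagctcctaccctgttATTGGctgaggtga
Ccne1: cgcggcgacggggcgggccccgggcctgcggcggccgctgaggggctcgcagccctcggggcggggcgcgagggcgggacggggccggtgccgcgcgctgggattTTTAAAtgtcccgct
The 3 mitotic promoters show CCAAT boxes followed by a CHR close to the start. Mcm6 holds E2F letters in 2 places, and those of Mcm3 lie after the start and are not in the stretch shown.

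Among the S-phase genes, 4 of 10 were called higher (Mcm3, Mcm6, Rrm2 and Tyms), beside 8.90% of the genes above the filter level in all sham mice (11.0% of all tested). At the adjusted p alone 7 were higher, beside 19.2%, and 3 missed it, and their median log2 fold change was 0.61. The largest response was that of Mcm3, a subunit of the MCM helicase that unwinds DNA at the replication fork (ENSMUSG00000041859.10, chr1:20802968-20820312, minus strand, mm10). Sham mice 1 to 4 had 2.90, 3.81, 3.49 and 4.65 CPM, and BCAS mice 1 to 4 had 29.1, 7.98, 17.7 and 15.6 CPM. Values per mouse are given in this order throughout. Every BCAS mouse lay above every sham mouse, with BCAS mouse 1 highest and BCAS mouse 2 lowest. The log2 fold change was 2.25 ± 0.36 (SE; edgeR adjusted p = 0.0041). Mcm6, another subunit of the helicase, stood at 7.27, 8.49, 9.04 and 9.65 CPM in sham mice and at 25.5, 12.6, 19.2 and 16.9 CPM in BCAS mice. The groups did not overlap, and the log2 fold change was 1.11 ± 0.21 (adjusted p = 0.00723).

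The other 4 helicase subunits changed less. Mcm2 stood at 5.97, 7.36, 6.41 and 5.97 CPM in sham and 14.8, 6.49, 11.8 and 9.37 CPM in BCAS mice. BCAS mouse 2 lay inside the sham range, and the difference passed only the adjusted p (log2 fold change 0.73 ± 0.24, adjusted p = 0.0452). Mcm4 went from 13.4 ± 1.92 to 18.8 ± 3.64 CPM (SD, n = 4 each), a log2 fold change of 0.49 that also passed only the adjusted p (0.0462). Mcm5 was at 7.96 ± 1.57 and 9.74 ± 2.86 CPM (adjusted p = 0.36) and Mcm7 at 15.1 ± 1.01 and 17.2 ± 3.93 CPM (adjusted p = 0.386), so a change was not shown for either. Of the exon bases of Mcm7, 12.6% are shared with other genes, among them Ap4m1 on the opposite strand, and the counts were made with no strand option. The subunits act as 1 complex, but their transcripts did not keep 1 ratio. Per kilobase of exon, Mcm3 made up 7.64% ± 1.31 of the summed level of the 6 subunits in sham and 20.6% ± 4.53 in BCAS mice (SD, n = 4), and Mcm7 made up 26.5% ± 1.61 and 18.2% ± 2.05. The share of Mcm3 was 6.43, 7.50, 7.15 and 9.49% in the sham mice, and the BCAS mice had 25.6, 14.6, 21.2 and 20.9%. These shares were looked at after the values of Mcm3 were seen and are given with no test.

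**Figure D2:**
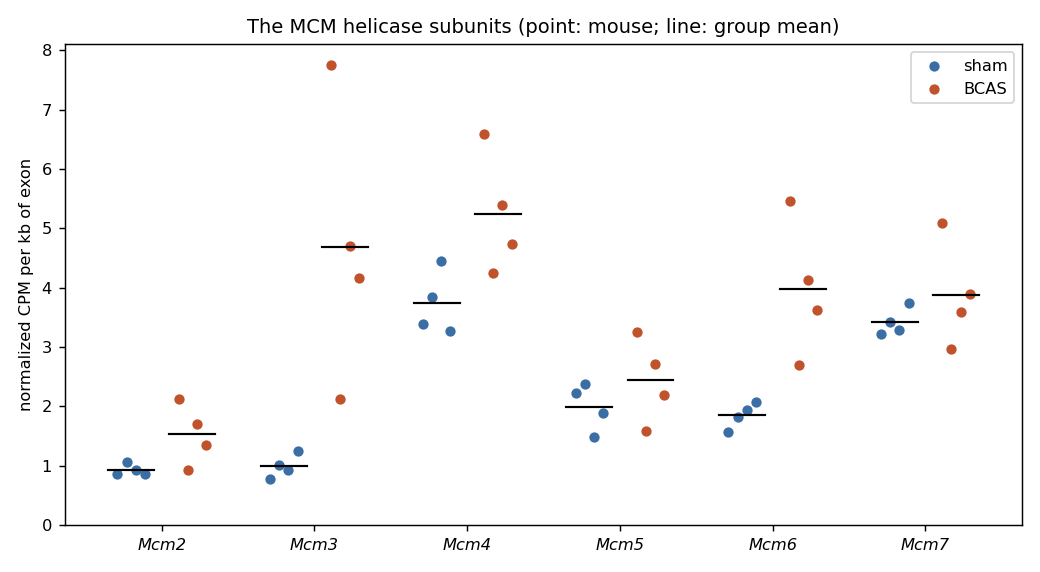
Level of the 6 MCM helicase subunits in normalized CPM per kilobase of exon (y axis) in each of 4 sham and 4 BCAS mice (points), with group means (lines). Mcm3 is among the lowest subunits in sham mice, below Mcm4 and Mcm7 in each of them, and in BCAS mouse 1 it is the highest of the 6.

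Among the other S-phase genes, Tyms, which encodes thymidylate synthase, stood at 1.19, 1.44, 1.32 and 1.15 CPM in sham and 4.31, 2.21, 3.13 and 2.62 CPM in BCAS mice. The groups were apart, with a log2 fold change of 1.27 ± 0.26 (adjusted p = 0.00937). The subunits of ribonucleotide reductase, which makes the deoxynucleotides, gave unequal values. Rrm2, the subunit made in S phase, went from 2.04 ± 0.487 to 5.49 ± 2.36 CPM (log2 fold change 1.43, adjusted p = 0.02), although BCAS mouse 2 (2.37 CPM) lay below the highest sham mouse (2.53 CPM). Rrm1, the longer-lived subunit, was at 23.3 ± 1.13 and 30.0 ± 6.44 CPM and missed the threshold (adjusted p = 0.0824). Pcna, the clamp that holds DNA polymerase on its template, was the most abundant member per length, at 76.9 TPM (counts per exon length, scaled to 1000000 per library) in sham mice. Its levels were 42.2, 46.4, 42.1 and 44.4 CPM in sham and 69.5, 46.9, 60.1 and 51.6 CPM in BCAS mice. Every BCAS mouse was above the sham mice, but by a small margin in BCAS mouse 2, and the log2 fold change was 0.38 ± 0.12 (adjusted p = 0.041). The calls at the adjusted p of Pcna and Mcm2 were each lost in 7 of 8 fits that left out 1 mouse, and that of Mcm4 in 6.

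The cyclins that open S phase went the other way or did not pass. Ccne1, cyclin E1, which drives CDK2 at the G1/S step (ENSMUSG00000002068.16, chr7:38097984-38107534, minus strand, mm10), stood at 20.8, 17.4, 19.6 and 18.9 CPM in sham and 8.53, 13.3, 11.1 and 11.2 CPM in BCAS mice. Every BCAS mouse lay below every sham mouse, and BCAS mouse 1, highest for most other members, was lowest here. The log2 fold change was -0.80 ± 0.14 (adjusted p = 0.00598), and it passed in all 8 fits that left out 1 mouse. The summed level of 5 pan-neuronal markers was lower in the same libraries, 5717 to 7129 CPM in sham against 1974, 4724, 3831 and 3223 CPM in BCAS mice 1 to 4, and its part in the level of Ccne1 was not tested. Ccne2, cyclin E2, was at 9.55 ± 1.28 and 8.68 ± 1.10 CPM (adjusted p = 0.498). It shares 17.4% of its exon bases with Ints8 on the opposite strand. Hmgb2, a chromatin protein abundant in dividing cells, stood at 5.85, 6.43, 3.89 and 5.55 CPM in sham and 21.9, 7.78, 19.2 and 12.5 CPM in BCAS mice. The groups did not overlap (log2 fold change 1.50 ± 0.32, adjusted p = 0.0107).

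Of the 24 mitotic genes, 18 were called higher, beside 11.0% of all genes tested, 20 were higher at the adjusted p alone, beside 19.2%, and 4 missed it. The median log2 fold change was 1.94. These counts and this median include the 8 genes that passed the filter only through BCAS mice. The mitotic genes were rare transcripts in the sham cortex, between 0.213 and 3.60 TPM, and reached 1.08 to 7.39 TPM in BCAS mice. Among the 16 that exceeded the filter level in all sham mice, 10 were called, beside 8.90% of all such genes, and the median was 1.36.

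The leading mitotic gene by p was Top2a, topoisomerase II alpha, which untangles the copied chromosomes (ENSMUSG00000020914.17, chr11:98992943-99024189, minus strand, mm10). It stood at 1.59, 2.31, 1.94 and 2.11 CPM in sham and 29.5, 5.82, 17.4 and 11.9 CPM in BCAS mice (log2 fold change 3.02 ± 0.46, adjusted p = 0.00341). The lowest BCAS mouse was more than 2 times the highest sham mouse. Cdk1, the kinase that drives entry into mitosis (ENSMUSG00000019942.13, chr10:69335146-69352938, minus strand, mm10), had the largest fold change of the members. It stood at 0.170, 0.811, 0.229 and 0.302 CPM in sham and 9.36, 1.85, 5.29 and 3.81 CPM in BCAS mice (log2 fold change 3.75 ± 0.62, adjusted p = 0.00456). Only 1 sham library exceeded the filter level, and the sham minimum was 3 counts, so the size of this fold is imprecise. Mki67, which encodes the proliferation antigen Ki-67, stood at 1.14, 2.56, 1.26 and 3.62 CPM in sham and 30.2, 3.55, 19.3 and 11.8 CPM in BCAS mice. BCAS mouse 2 lay just below Sham mouse 4, so the groups overlapped, although the test was passed (log2 fold change 2.92 ± 0.63, adjusted p = 0.0118).

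The mitotic cyclins and polo-like kinase 1 rose as well. Ccna2, cyclin A2, stood at 1.82, 2.12, 1.09 and 1.87 CPM in sham and 11.3, 3.55, 8.10 and 5.39 CPM in BCAS mice, with no overlap (log2 fold change 2.04 ± 0.38, adjusted p = 0.0067). It shares 12.5% of its exon bases with Exosc9 on the opposite strand. Ccnb1, cyclin B1, stood at 0.568, 1.12, 0.172 and 0.664 CPM in sham and 5.71, 1.18, 4.38 and 2.40 CPM in BCAS mice. The groups were apart by a narrow margin at BCAS mouse 2, with a log2 fold change of 2.44 ± 0.59 (adjusted p = 0.0176). Ccnb2, cyclin B2, went from 0.666 ± 0.321 to 2.55 ± 1.28 CPM (log2 fold change 1.93, adjusted p = 0.0201). Plk1, which encodes that kinase and matures centrosomes and spindles, stood at 0.739, 0.998, 1.03 and 0.603 CPM in sham and 5.28, 1.80, 2.92 and 3.87 CPM in BCAS mice. It was called without overlap (log2 fold change 2.04 ± 0.37, adjusted p = 0.00608), and here BCAS mouse 4 lay above BCAS mouse 3.

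**Figure D3:**
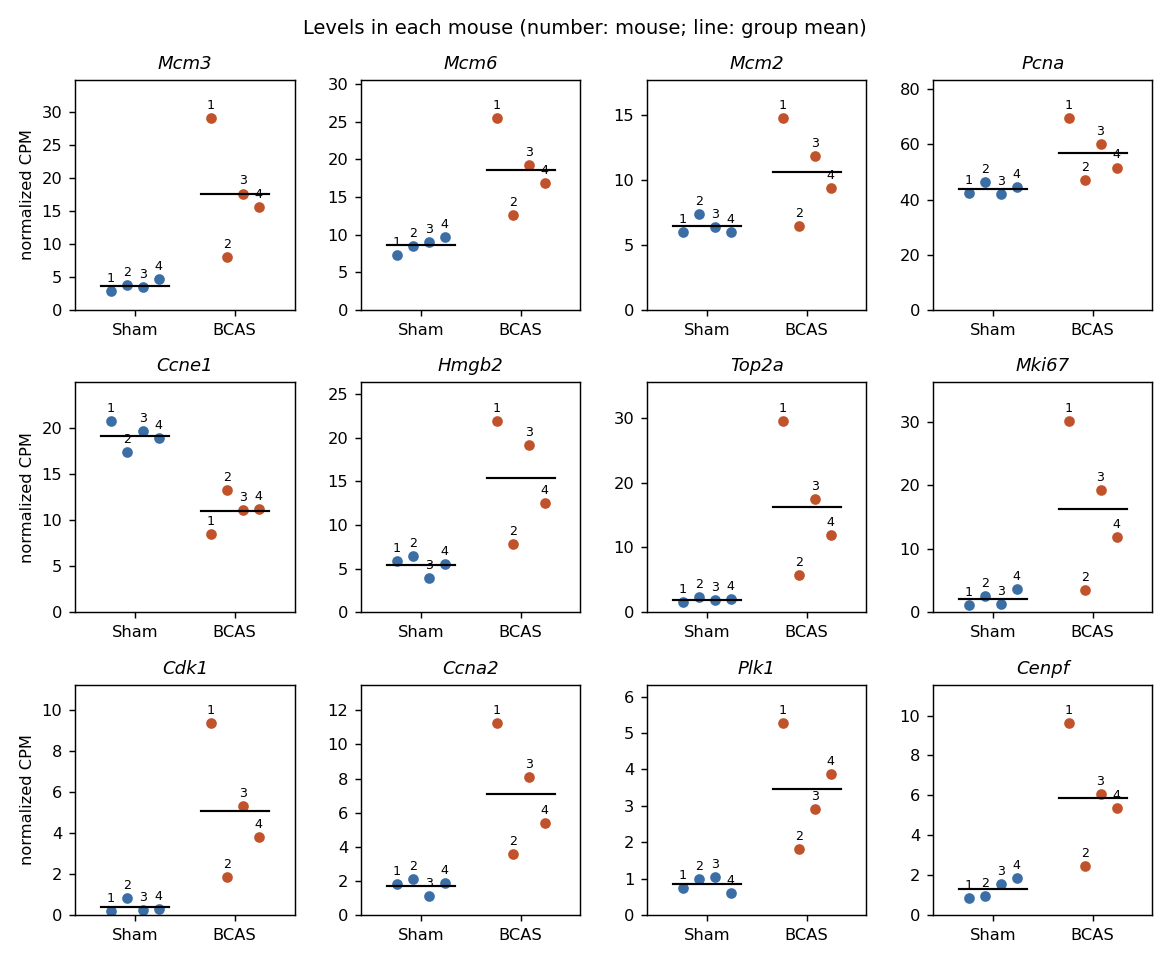
Normalized CPM (y axis, from 0) of 12 members in each mouse (points, numbered by mouse) with group means (lines), n = 4 per group. BCAS mouse 1 is highest and BCAS mouse 2 lowest in 11 of the 12 panels, and the order of those mice is turned in Ccne1, the 1 gene that is lower in BCAS mice.

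Kinetochore and spindle genes followed. Cenpf, a kinetochore protein, stood at 0.852, 0.936, 1.54 and 1.87 CPM in sham and 9.63, 2.47, 6.05 and 5.34 CPM in BCAS mice (log2 fold change 2.17 ± 0.43, adjusted p = 0.0087). Cenpe, a kinetochore motor that brings chromosomes to the spindle equator, stood at 1.99, 1.44, 1.72 and 1.57 CPM in sham and 7.60, 2.83, 6.75 and 3.76 CPM in BCAS mice (log2 fold change 1.64 ± 0.33, adjusted p = 0.00947). Neither gene overlapped between the groups. Tpx2, a spindle assembly factor that activates Aurora A, stood at 2.39, 3.06, 2.92 and 2.96 CPM in sham and 9.98, 3.35, 8.97 and 6.43 CPM in BCAS mice. BCAS mouse 2 was only slightly above the sham range (log2 fold change 1.34 ± 0.32, adjusted p = 0.0163). Dlgap5, a microtubule-binding spindle protein, stood at 0.170, 0.187, 0.343 and 0.664 CPM in sham and 3.34, 0.876, 1.62 and 1.31 CPM in BCAS mice (log2 fold change 2.38 ± 0.56, adjusted p = 0.0154). Kif11, the motor that pushes spindle poles apart, went from 2.16 ± 0.780 to 6.41 ± 3.02 CPM (log2 fold change 1.57, adjusted p = 0.019). Nusap1, a spindle protein, went from 3.46 ± 0.262 to 6.52 ± 2.21 CPM and passed the adjusted p (0.0273) with a log2 fold change of 0.91. It lost the adjusted p in 6 of the 8 fits that left out 1 mouse.

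The chromosomal passenger complex corrects the attachment of chromosomes and starts cytokinesis, and 3 of its 4 genes are members. All 3 were called, 2 of them (Birc5 and Aurkb) among the genes that passed the filter only through BCAS mice. The fourth gene, Incenp, which is no member, was at 19.3 ± 3.55 and 18.2 ± 2.46 CPM and missed the threshold (log2 fold change -0.09, adjusted p = 0.679). Birc5, survivin, stood at 0.568, 0.437, 0.458 and 0.845 CPM in sham and 3.03, 0.721, 3.24 and 1.96 CPM in BCAS mice. BCAS mouse 2 lay inside the sham range (log2 fold change 1.95 ± 0.48, adjusted p = 0.0184). Aurkb, the kinase of the complex, went from 0.298 ± 0.281 to 2.65 ± 1.80 CPM (log2 fold change 3.14, adjusted p = 0.0188), and had no count in Sham mouse 3, which allows up to 0.171 CPM there. Cdca8, borealin, went from 1.11 ± 0.380 to 2.81 ± 1.33 CPM (log2 fold change 1.34, adjusted p = 0.0361). Its adjusted p, like that of Kif20a, was lost in 7 of 8 fits that left out 1 mouse.

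The genes of the spindle checkpoint and of mitotic exit gave mixed values. Bub1, a checkpoint kinase, went from 0.315 ± 0.247 to 1.86 ± 1.32 CPM (log2 fold change 2.55, adjusted p = 0.0331), with BCAS mouse 2 (0.258 CPM) inside the sham range. Bub1b, which encodes the checkpoint protein BubR1, was at 2.54 ± 1.00 and 4.45 ± 2.18 CPM and missed the threshold (adjusted p = 0.144). Cdc20, the activator of the anaphase-promoting complex, went from 1.13 ± 0.389 to 2.93 ± 1.62 CPM (log2 fold change 1.38, adjusted p = 0.0395). BCAS mice 2 and 4 (1.65 and 1.58 CPM) lay below Sham mouse 4 (1.69 CPM). Bub1 and Cdc20 each lost the adjusted p in 6 of the 8 fits that left out 1 mouse. Ube2c, a ubiquitin-conjugating enzyme of the same complex, went from 0.449 ± 0.354 to 2.98 ± 2.29 CPM (log2 fold change 2.73, adjusted p = 0.0213), with BCAS mouse 2 (0.773 CPM) below Sham mouse 4 (0.965 CPM), and shares 22.8% of its exon bases with Tnnc2 on the opposite strand.

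The remaining mitotic genes missed the fold threshold, the adjusted p or both. Kif20a, a midzone motor, went from 1.9 ± 0.406 to 3.47 ± 0.854 CPM and passed the adjusted p alone (0.0353), but shares 33.2% of its exon bases with Cdc23 on the opposite strand. Kif23 was at 1.61 ± 0.625 and 3.58 ± 1.88 CPM (adjusted p = 0.0686) and Prc1, which bundles midzone microtubules, at 4.34 ± 0.727 and 7.79 ± 3.76 CPM (adjusted p = 0.0747). Aurka, the Aurora A kinase of the spindle poles, was at 1.85 ± 0.495 and 2.81 ± 0.241 CPM (adjusted p = 0.0736). All 3 missed the threshold, with log2 fold changes of 1.15, 0.84 and 0.61 in that order. For Aurka the BCAS mice nevertheless lay above the sham mice and within a narrow range, 2.47 to 3.00 CPM, and BCAS mouse 4 was highest. Reads could also be split with annotated pseudogene copies in Ccnb1, Ccnb2, Pcna and Tyms, and Prc1 shares 11.1% of its exon bases with Rccd1 on the opposite strand, so these levels are less certain.

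The S-phase and mitotic genes were compared over the genes above the filter level in all 4 sham mice, which are all 10 S-phase but 16 of 24 mitotic genes. Over these the relative change was larger for the mitotic ones in every BCAS mouse. The mean log2 CPM (prior count 2) of the S-phase genes relative to the sham mean was 1.28, 0.24, 0.90 and 0.71 in BCAS mice 1 to 4, with a sham SD of 0.10, and that of the 16 mitotic genes was 2.14, 0.60, 1.65 and 1.23, with a sham SD of 0.10. The mitotic value minus the S-phase value was 0.85, 0.36, 0.74 and 0.52 in BCAS mice and between -0.19 and 0.08 in sham mice, a description with no test. Over all 24 mitotic genes, 8 of which were kept through their BCAS level, the same difference was 1.23, 0.50, 1.11 and 0.78. The lists started from unequal levels. Summed per length, the S-phase genes went from 144 ± 7.30 to 211 ± 43.6 TPM and all 24 mitotic genes from 33.8 ± 1.69 to 106 ± 47.8 TPM (SD, n = 4). The 16 mitotic genes above the filter level in all sham mice went from 28.7 ± 1.54 to 77.6 ± 31.6 TPM. The rise in summed level was 66.7 TPM for the S-phase genes, 48.9 TPM for those 16 mitotic genes and 72.2 TPM for all 24, and the folds of the summed levels were 1.46, 2.70 and 3.13. The share that the higher S-phase level in sham mice had in the unequal folds was not tested.

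**Figure D4:**
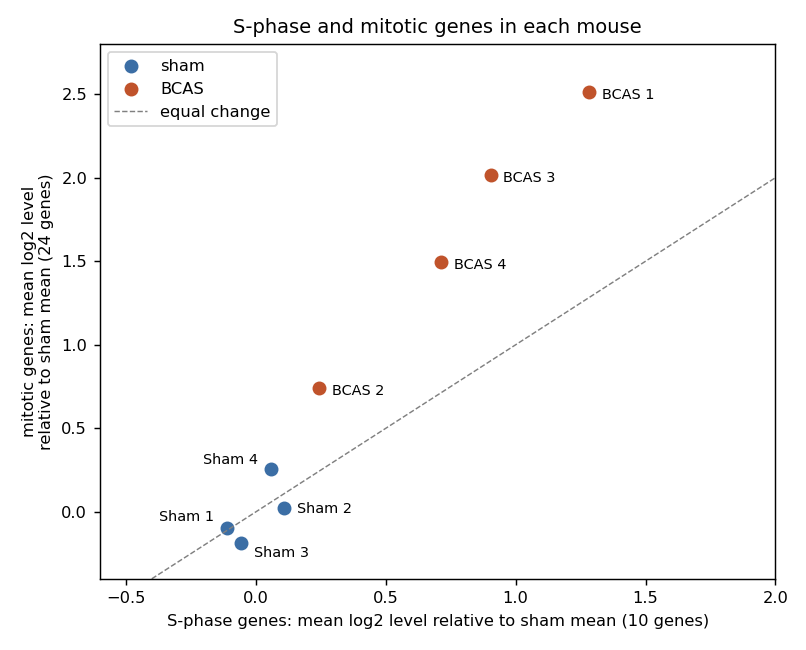
Mean log2 level of all 24 mitotic genes, the 8 kept through their BCAS level included, (y axis) against that of the 10 S-phase genes (x axis), each relative to the sham mean, in each mouse (points), with the line of equal change. The 4 sham mice lie near 0 on both axes, and the BCAS mice lie above the line, from mouse 2 (0.24 and 0.74) to mouse 1 (1.28 and 2.51).

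The BCAS mice differed from each other more than the sham mice did, and in the same order across most members. The order mouse 1, 3, 4, 2 from high to low held in 28 of 37 members. Mouse 1 was highest in 10 of 10 S-phase and 21 of 24 mitotic genes, and mouse 2 lowest in 10 of 10 and 22 of 24. BCAS mouse 2 lay above every sham mouse in 4 S-phase and 15 mitotic genes, against 10 and 24 for BCAS mouse 1.

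Markers of cells that can divide were summed by cell type in the same mice, and their part in the members' change was not tested. Calls of markers are to be read beside 11.0% called higher and 19.2% higher at the adjusted p over all genes tested. Among genes above the filter level in all sham mice the share called was 8.90%. The summed level of 9 microglia markers was 343 to 420 CPM in sham mice and 5883, 1552, 3003 and 3117 CPM in BCAS mice 1 to 4, and all 9 were called higher. That of 8 T and NK cell markers was 0.227 to 0.543 CPM in sham and 42.1, 2.32, 26.7 and 8.45 CPM in BCAS mice. That of 6 monocyte and neutrophil markers was 0.724 to 1.50 CPM in sham and 81.1, 3.55, 50.6 and 13.1 CPM in BCAS mice, and 1 of the 6, the neutrophil marker Ly6g, had no count in any library. Most of these white blood cell markers were under the filter on low counts. The 1 T and NK cell and 2 monocyte and neutrophil markers that were tested were called higher. None of them was above the filter level in all 4 sham mice. They could pass the filter only through BCAS mice, so their calls carry little weight. Microglia markers were thus plain in sham mice, whereas those of white blood cells were near 0 there. The 4 B cell markers summed to 0.511 to 1.25 CPM in sham and 20.9, 2.16, 13.9 and 2.83 CPM in BCAS mice, and the 5 fibroblast markers to 116 to 145 CPM and 780, 213, 809 and 356 CPM. The 1 B cell marker tested, Cd79b, was called higher but was under the filter level in every sham mouse, so this call too carries little weight. Of the 5 fibroblast markers, 4 were called higher. Astrocyte markers (5 genes) went from 1219.6 to 1324 CPM in sham to 2321 to 5757 CPM in BCAS mice, and those of oligodendrocyte precursors (5 genes) from 182 to 199 CPM to 230 to 359 CPM. Of these 2 lists, 2 and 1 genes were called higher and 5 and 3 were higher at the adjusted p alone, with medians of 0.61 and 0.51 on the log2 scale. Gfap alone went from 155 ± 22.2 to 2320 ± 1015 CPM and made up most of the rise of the astrocyte sum. The sums of endothelial markers overlapped between the groups (5 genes, 181 to 254 CPM in sham and 229 to 358 CPM in BCAS mice). Those of pericyte markers (5 genes) were higher in every BCAS mouse, at 321 to 476 CPM, than in any sham mouse, at 259 to 305 CPM. No endothelial or pericyte marker was called by edgeR, while 2 and 3 of them passed the adjusted p alone.

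The order of BCAS mice 3 and 4 differed between these lists. Mouse 3 lay above mouse 4 in 9 of 10 S-phase and 22 of 24 mitotic genes, beside 56.9% of all genes tested. It did so in 8 of 8 T and NK cell, 4 of 4 B cell, 5 of 5 fibroblast and 5 of 6 monocyte and neutrophil markers, but in 2 of 9 microglia, 2 of 5 astrocyte, 1 of 5 oligodendrocyte precursor, 1 of 5 endothelial and 2 of 5 pericyte markers. For neural progenitor and neuroblast markers the count was 3 of 7, and for choroid plexus markers 1 of 4. Among lists of cells that do not divide, it did so in 4 of 4 cortical excitatory neuron, 3 of 5 pan-neuronal and 0 of 5 striatal markers. The fibroblast and oligodendrocyte precursor lists share 1 gene, Pdgfra, for which mouse 3 lay above mouse 4. This is an order of 2 mice and carries no test.

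**Figure D5:**
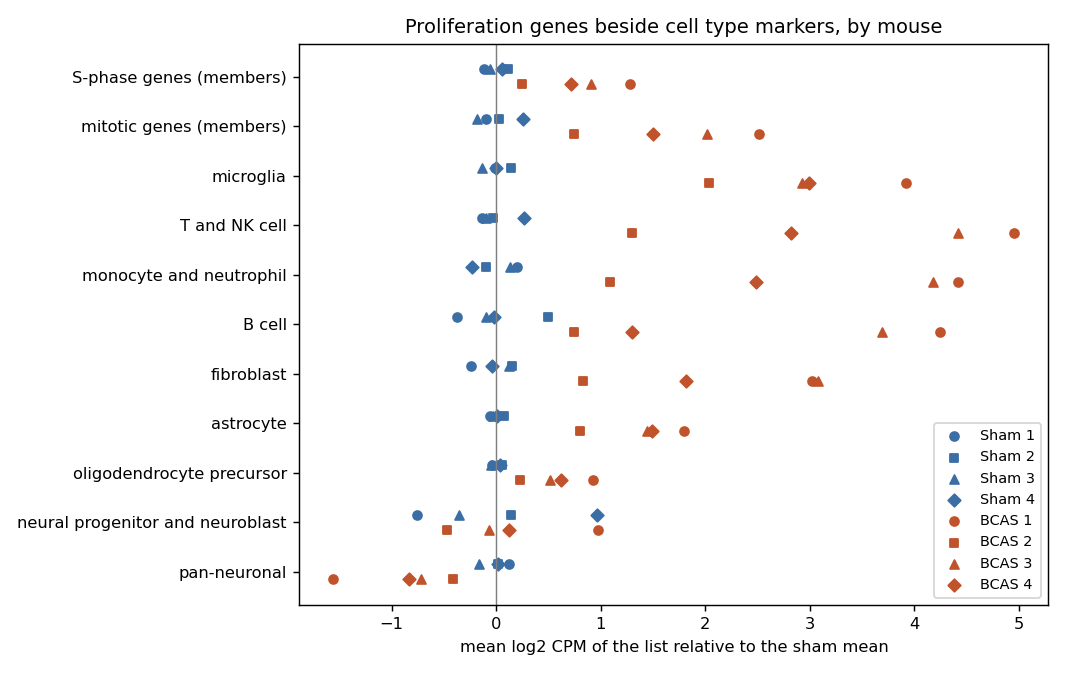
Mean log2 CPM of the S-phase and mitotic members and of cell type marker lists relative to the sham mean (x axis) in each sham mouse and each BCAS mouse (marker shape, mouse number). BCAS mouse 2 is the lowest BCAS mouse for the members and for each immune, glial and fibroblast list shown, and neural progenitor markers overlap between the groups.

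The overlap of Mki67 between the groups came from Sham mouse 4. It was the highest sham mouse in 8 of 24 mitotic genes, against 5, 6 and 5 for Sham mice 1 to 3. The summed level of the 24 genes was 34.7, 34.8, 35.3 and 40.3 CPM in Sham mice 1 to 4, so that this mouse stood apart from the other 3. Sham mouse 4 had the highest summed level of 7 neural progenitor and neuroblast markers, 208 CPM against 120 to 141 CPM in the other sham mice. Eomes, a marker of intermediate progenitors named here after its values were seen, stood at 0.0568, 1.56, 0.172 and 12.8 CPM in sham and 12.3, 0.155, 1.62 and 1.09 CPM in BCAS mice, high in 1 mouse of each group. The progenitor list did not separate the groups (101 to 171 CPM in BCAS mice), and its part in the sham level of Mki67 was not tested. Choroid plexus markers (4 genes) reached 754 CPM in Sham mouse 3, against 13.6 to 61.4 CPM in the other libraries. Without that mouse 18 members were called higher, beside 1833 of the 17647 genes tested. Markers of cortical excitatory neurons (4 genes) were at 1829 to 2044 CPM in sham mice and at 560, 1570.5, 1181 and 917 CPM in BCAS mice, and striatal markers (5 genes) at 153 to 275 CPM and 195 to 448 CPM.

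Other genes of the cell cycle are given by list, to be read beside the 11.0% called higher and the 19.2% higher at the adjusted p over all genes tested. Of 29 replication genes outside the members, 5 were called higher, 9 passed the adjusted p and were higher, and 20 missed it, with a median log2 fold change of 0.46. Of the 29, 4 were kept only through their BCAS level. Over the 25 above the filter level in all sham mice, 3 were called higher, against 8.90% of all such genes, with a median of 0.44. None of the 29 was lower in edgeR, at an unadjusted p under 0.05 (0 genes) or in DESeq2 and limma-voom at an adjusted p under 0.05 (0 genes). By p the leading ones were Tk1, thymidine kinase (1.87, adjusted p = 0.0104), Cdt1, which loads the MCM helicase (1.38, adjusted p = 0.0132), Uhrf1, which maintains DNA methylation (1.69, adjusted p = 0.0138), and Chaf1b, a histone chaperone subunit above the filter level in only 2 sham mice (1.88, adjusted p = 0.0204). The median of these genes stood below that of the S-phase members. Of 44 mitosis genes outside the members, 41 were tested, 18 were called higher, 21 passed the adjusted p and were higher, and 20 missed it, with a median of 1.18. Of the 41, 12 were kept only through their BCAS level. Over the 29 above the filter level in all sham mice, 10 were called higher, again beside 8.90%, with a median of 0.65. By the same tests 0 of the 41 were lower. The leading ones were Ckap2, a spindle protein above the filter level in 3 sham mice (2.39, adjusted p = 0.00276), the kinetochore gene Ndc80, under the filter level in every sham mouse (2.93, adjusted p = 0.0041), Espl1, separase (2.36, adjusted p = 0.005), and the condensin subunit Smc4 (1.27, adjusted p = 0.00856).

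Regulators of these genes are given in the same way. Of 20 transcription regulators, 5 were called higher, 7 passed the adjusted p and were higher, 1 was lower, beside 12.8% of all genes tested, and 12 missed it, at a median log2 fold change of 0.34. Among the 18 above the filter level in all sham mice, 4 were called higher, beside 8.90%, with a median of 0.27. E2f2, an activating E2F, went from 1.13 ± 0.303 to 6.12 ± 3.47 CPM (2.44, adjusted p = 0.00874), whereas E2f1, of the same activating group, fell from 22.6 ± 3.66 to 14.1 ± 2.01 CPM (-0.69, adjusted p = 0.013) with no overlap between the groups. Among the members and the cell cycle lists, E2f1 and Ccne1 were the genes in which every BCAS mouse lay below every sham mouse. Foxm1, which activates mitotic genes in G2, went from 2.07 ± 0.0964 to 5.28 ± 1.95 CPM (1.35, adjusted p = 0.00881), Rbl1, the pocket protein p107, from 3.62 ± 0.694 to 11.6 ± 5.83 CPM (1.69, adjusted p = 0.0099), and Myc from 3.96 ± 0.811 to 10.2 ± 3.88 CPM (1.36, adjusted p = 0.0123). Of 9 G1 cyclins, kinases and phosphatases, 3 were called higher, 6 passed the adjusted p and were higher and 3 missed it, with a median of 0.64. Cdk2, the partner of cyclin E, went from 2.89 ± 0.533 to 9.64 ± 2.85 CPM (1.73, adjusted p = 0.00305), Cdk6 from 4.53 ± 0.635 to 14.4 ± 5.25 CPM (1.67, adjusted p = 0.00344), and Ccnd1, cyclin D1, from 42.6 ± 1.68 to 88.8 ± 25.9 CPM (1.06, adjusted p = 0.00464). The rise of Cdk2 therefore stood beside a fall of Ccne1, while Ccne2, the other cyclin E, missed the threshold (-0.14, adjusted p = 0.498). Cyclin A2, Ccna2, was called higher. Ccnd1 shares 23.4% of its exon bases with a gene on the opposite strand. Of 7 CDK inhibitors, 6 were tested. Cdkn2c, p18, was called higher, from 3.67 ± 1.23 to 8.55 ± 4.48 CPM (1.22, adjusted p = 0.0452), Cdkn2d, p19, fell from 39.8 ± 3.74 to 29.1 ± 5.61 CPM (-0.46, adjusted p = 0.0419), and 4, among them Cdkn1a (p21), missed the threshold.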

How the data were processed

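RNA-seq libraries of 4 sham and 4 BCAS mice were analysed, grouped by the sample labels. The authors trimmed the reads with Trim Galore, aligned them to mm10 with HISAT2, sorted them with SAMtools 1.9 and deposited featureCounts gene counts without normalization. The table headers name featureCounts 2.0.1, GENCODE vM20 and no strand option, whereas the methods name version 1.6.3 and RefSeq genes. Symbols were matched by gene ID (53861 of 54752 with version, 862 without, 29 without a symbol). Total counts ranged from 16759364 to 21794435 per library, and 3 counts in the smallest correspond to 0.179 CPM, the limit that a count of 0 allows (counting error only).

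Counts were fitted over the whole table with edgeR 4.0.16 in R 4.3.3 (TMM factors 0.949 to 1.05, filterByExpr with a minimum count of 10 and a minimum total of 15, quasi-likelihood F-test, no covariates), with Benjamini-Hochberg adjustment over the 17136 genes tested. Calls used the thresholds of the study, 0.05 for the adjusted p and 1 for the size of the log2 fold change. CPM values are TMM-normalized and TPM values use the exon length in the tables. Named genes were all members, with values in every library for the 16 of smallest p and for Mki67, Top2a, Cdk1, Pcna and Mcm2, and up to 4 called genes of each other list by p, except that genes named beyond these (E2f1, Cdkn2d, Cdkn1a, Eomes and genes below the filter) were chosen after their values were seen. The members and lists were chosen with earlier results of these data known. Libraries were not identical to each other. Alternatives were other normalizations, filters, tests and thresholds (DESeq2 1.42.0, limma 3.58.1), a replicate block and leaving out each mouse. Figures were drawn with matplotlib 3.10.9. Promoter windows came from RefSeq (GRCm38.p6).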

Additional observations from a re-analysis of the deposited data

Results flagged for a closer look

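In groups of 4 mice, a value was set apart where its gap to the nearest other mouse took up most of the range of the group, past the 95% critical value of Dixon's test. Of 142 groups looked at, 9 were found. Chance sets apart about 1 in 20 groups, but these were not a free draw. They were 74 groups of single members, 52 of list sums, some of which share genes, and 16 of other genes. Some of those other genes were named after their values were seen, so the 9 cannot be read against 1 in 20. None was among the 74 groups of single members. The summed level of the 24 mitotic genes was 40.3 CPM in Sham mouse 4, against a sham median of 35.0 CPM. That of the mitotic genes above the filter level in all sham mice was not set apart. The other list sums set apart were the choroid plexus markers in Sham mouse 3 (754 CPM, median 32.2 CPM), the cortical excitatory neuron markers in the same mouse (1829 CPM, median 2023 CPM) and the striatal markers in BCAS mouse 4 (448 CPM, median 219.5 CPM). Eomes stood apart in Sham mouse 4 (12.8 CPM, median 0.866 CPM) and in BCAS mouse 1 (12.3 CPM, median 1.36 CPM). Cdkn2d was low in Sham mouse 3 (34.3 CPM, median 41.5 CPM). Near the counting limit, Sgo1 stood apart in Sham mouse 1 (0.341 CPM, median 0.123 CPM) and Cdkn2a in Sham mouse 2 with its single count (0.0624 CPM, no count in the other 3).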

How the results depend on the processing

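No member changed direction under the alternatives run. The 23 members called higher became 15 when at least 10 counts were required in every library, a setting under which 29 members were tested, and 3 under glmTreat, which tests against a log2 fold change of 1 in place of 0. Leaving out 1 mouse gave 11 to 27 called members, 11 without Sham mouse 1, 15 without Sham mouse 2 and 27 without BCAS mouse 2. The other normalizations, tests, filters and the setting with no fold threshold gave 16 to 28. The median log2 fold change of the mitotic genes was 1.03 with limma on log2(CPM + 1), where the pseudocount shrinks rare transcripts, 1.36 over the 16 above the filter level in all sham mice (chosen after seeing the data), and 1.71 to 2.21 without 1 mouse, and that of the S-phase genes was 0.45 to 0.75 without 1 mouse. Of the 29 members past the adjusted p, 12 passed in all 8 fits without 1 mouse (Ccna2, Ccne1, Cdk1, Cenpe, Cenpf, Hmgb2, Mcm3, Mcm6, Mki67, Plk1, Top2a and Tyms), and 8 were lost in 6 (Bub1, Cdc20, Mcm4 and Nusap1) or 7 of them (Cdca8, Kif20a, Mcm2 and Pcna). Over all members and settings, 512 values kept their side of the adjusted p, 101 lost it and 8 gained it. Over all genes, glmTreat called 739 higher against 1877. With at least 10 counts in every library, 1426 of 15248 genes tested were called higher, and with the replicate block 1624 of 17136. Leaving out 1 mouse gave 1532 to 2408 such genes. Replicate numbers do not pair the mice (correlations of same-numbered deviations -0.0455, -0.103, -0.0082 and 0.0013). With a replicate block, 17 members were called, with medians of 0.58 for S-phase and 1.87 for mitotic genes, 12 lost the adjusted p and 1 gained it. Depth limits the 8 members under the filter level in part of the sham libraries, whose folds are imprecise.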

Other observations

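A few cell cycle genes stayed under the filter on low counts and were fitted with edgeR only where that filter was dropped (every gene with a count kept). Knl1, a kinetochore scaffold, stood at 0.398, 0.250, 0.343 and 0.362 CPM in Sham mice 1 to 4 and at 4.26, 0.412, 2.54 and 2.29 CPM in BCAS mice 1 to 4. Every BCAS mouse was above the sham mice, but BCAS mouse 2 by a small margin (edgeR adjusted p = 0.00716). Cdca2, a mitotic phosphatase partner, had no count in Sham mice 1 and 3 and stood at 0.499 and 0.241 CPM in Sham mice 2 and 4, against 3.12, 0.412, 1.89 and 1.14 CPM in BCAS mice (adjusted p = 0.0286). Sgo1, which protects cohesin at the centromere, stood at 0.114 to 0.341 CPM in sham and 1.10, 0.0515, 1.89 and 0.872 CPM in BCAS mice, and did not pass (adjusted p = 0.0583). BCAS mouse 2 lay inside the sham range for Cdca2 and below it for Sgo1. Cdkn2a, a CDK inhibitor gene known as a marker of senescent cells, had 0, 1, 0 and 0 counts in sham and 31, 4, 5 and 12 counts in BCAS mice. Its groups were apart (adjusted p = 0.00852), and its fold has no fixed size because the sham counts are at or under 1.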
